A study of Bos taurus with 138 samples.

Results

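The comparison described here follows the messenger RNA content of the cow egg across fertilization and the first cleavage, from the metaphase II (MII) oocyte to the 2-cell embryo. It used 6 of the 138 RNA-seq libraries of the series, the 3 whole-sample libraries (A, B and C) of MII oocytes and the 3 of 2-cell embryos, chosen by stage and library kind alone, with each gene scaled to library size. Each of these libraries came from a pool of 20 Bos taurus oocytes or embryos. The MII oocytes were matured in vitro from follicles of slaughterhouse ovaries and were stripped of their cumulus cells. The 2-cell embryos were produced from such oocytes by in vitro fertilization with semen of a single Holstein bull and were cultured in vitro. Both groups were held in cycloheximide, which stalls ribosomes, before collection, and had the zona pellucida removed. The pools of a stage were taken from the same batch of oocytes or embryos as its polysome gradients, so that stage and batch cannot be told apart, and nothing says that replicates came from separate cultures, so that their spread may be technical. The p-values rest on a spread estimated per gene over all 18 whole samples and 12 polysome pools of the 6 stages, which can exceed that between the 6 libraries compared. Polysome pools of the same stages (fractions 8 to 10 of 2 sucrose gradients, summed per gradient) served as a readout of ribosome-loaded mRNA, and germinal vesicle (GV) oocytes, from before maturation, and 8-cell embryos served for orientation.

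An MII oocyte is arrested in the second meiotic division and is nearly silent in transcription. It lives on mRNA stored during growth, which is activated by lengthening of the poly(A) tail, repressed by shortening of it, or destroyed. Fertilization releases the arrest through calcium signals, and the first cleavages in cattle run largely on these maternal stores, since the major wave of embryonic genome activation comes around the 8-cell stage. The libraries were primed on poly(A) tails, so that a change in level here can come from a change in the amount of an mRNA or in the length of its tail, and these cannot be told apart. Nor can fewer cells of one type in a pool and less RNA per cell.

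The 6 libraries held between 10499936 and 11812567 counts. On log2(CPM + 1), Pearson's r over 10573 genes was 0.980 to 0.988 between MII libraries, 0.981 to 0.989 between 2-cell libraries, and 0.896 to 0.928 between the stages. Levels are given as CPM, counts scaled to library sizes adjusted by TMM, a scaling that assumes that most genes do not change. The TMM factors were 0.737 to 0.879 in MII and 1.11 to 1.22 in 2-cell libraries, and library totals alone moved the median of all genes by 0.46 on the log2 scale towards the 2-cell stage. Of 14 tested markers that oocytes make, GDF9, BMP15, ZP2, ZP3 and DPPA3 were above 200 CPM in all 6 libraries. As stored maternal mRNAs of either stage, they do not tell the stages apart by their presence. Other markers of the list were lower. Over the 6 libraries NOBOX was at 4.12 to 28.3 CPM, NLRP5 at 17.0 to 82.8 CPM and ZAR1 at 82.0 to 189 CPM. The sperm protamine genes PRM1 and PRM2 had 0 counts in all 6, which allows at most 0.333 CPM in an MII and 0.231 CPM in a 2-cell library (3 counts, counting error only). Other genes among the 24 listed sperm markers were present at both stages. LDHC had 4444 to 5143 counts in MII and 2511 to 3053 in 2-cell libraries. Of the 11 tested sperm markers 0 rose and 0 fell. Their summed level was 497 to 678 CPM in MII and 235 to 288 CPM in 2-cell libraries.

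Of 14612 genes tested, 877 (6.0%) were higher and 871 (5.96%) lower in 2-cell embryos by more than 2-fold at an adjusted p below 0.05 (edgeR's quasi-likelihood test with Benjamini-Hochberg adjustment), and these are the changes called here. The split depended on scaling, since library totals alone gave 1713 higher and 432 lower. The rises were modest, with a median log2 fold change of 1.80 and a 95th percentile of 3.42. The falls had a similar median of -1.74 but a long tail, and their 5th percentile was -7.19. The plot of all genes shows both: the rises lie mostly on genes of low or middling level, and the deepest falls on genes that were nearly absent from 2-cell embryos. Without regard to the test, all 3 2-cell libraries lay above all 3 MII libraries for 3607 genes (24.7%) and below them for 3720 (25.5%). Leaving out MII C or 2-cell C reduced the rises to 478 and 536.

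**Figure D1:**
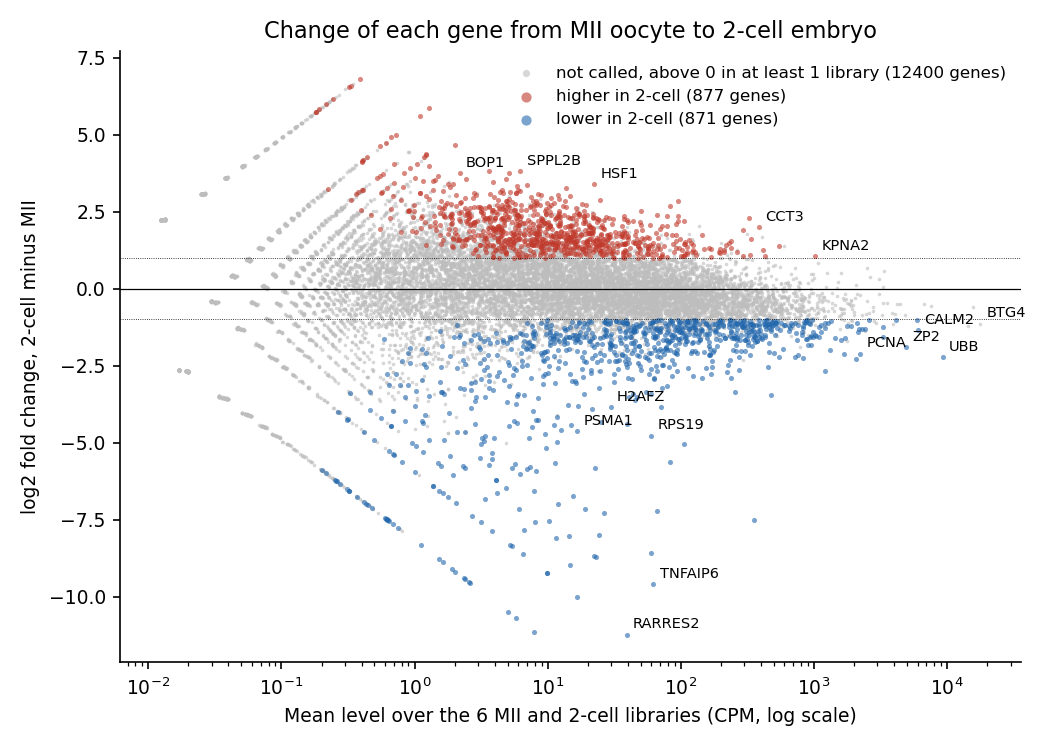
Each point is a gene, with its mean level over the 6 MII and 2-cell libraries (CPM, log axis) against its log2 fold change (2-cell minus MII). Red points are the 877 genes called higher, blue points the 871 called lower and gray points the 12400 genes not called that had a value above 0, and the dotted lines mark 2-fold change.

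Among genes at 10 CPM or more in 2-cell embryos, SPPL2B, an intramembrane protease, rose furthest and HSF1, the transcription factor that switches on heat shock genes, came next. HSF1 stood at 2.98, 4.76 and 3.81 CPM in MII libraries A to C and at 36.3, 34.4 and 51.6 CPM in the 2-cell libraries (log2 fold change 3.40 ± 0.32 SE, n = 3 each, edgeR adjusted p = 2.01e-07). SPPL2B went from 0.916, 0.608 and 0.952 to 11.8, 8.31 and 14.8 CPM (3.82 ± 0.47, edgeR adjusted p = 6.58e-06). BSPRY rose from 1.90 to 2.94 CPM in MII libraries to 19.4 to 28.6 CPM (3.28 ± 0.50, edgeR adjusted p = 8.52e-05). For each of the 12 leading genes the groups did not overlap, which the rule that chose these genes required. The other members were TMEM201 of the inner nuclear membrane, the heme transporter SLC48A1, the death-effector domain gene DEDD2, CLPTM1, SLC49A3, the Rab regulator TBC1D25, the F-box gene FBXL14, the ETS transcription factor ELF3 and EXTL3, which starts heparan sulfate chains. Their log2 fold changes ran from 3.04 to 3.35. Of these 12, EXTL3 lost its call on leaving out any of the 3 MII libraries (edgeR adjusted p up to 0.0768).

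The 5 genes with the most counts among those that rose were CCT3, RACGAP1, TTC1, KPNA2 and FAM192A. CCT3, a subunit of the chaperonin that folds actin and tubulin, was at 133, 173 and 151 CPM in MII oocytes and at 710, 623 and 510 CPM in 2-cell embryos (2.01 ± 0.23, edgeR adjusted p = 3.27e-06). RACGAP1, part of the centralspindlin complex of cytokinesis, went from 266, 313 and 325 to 974, 749 and 646 CPM (1.39 ± 0.25, edgeR adjusted p = 0.000474). TTC1 rose from 215 to 258 CPM to 568 to 605 CPM (1.27 ± 0.25, edgeR adjusted p = 0.00121). KPNA2, an importin that carries proteins into the nucleus, was at 606, 667 and 712 CPM and then at 1760, 1450 and 935 CPM (1.07 ± 0.26, edgeR adjusted p = 0.00703), with 2-cell C well below 2-cell A and B. FAM192A was the fifth (1.06 ± 0.30, edgeR adjusted p = 0.0183). The calls of KPNA2 and FAM192A lay close to the threshold: KPNA2 lost its call without MII A or 2-cell A (log2 fold change as low as 0.85), and FAM192A without any MII library or 2-cell C (edgeR adjusted p up to 0.0741), and neither passed with RLE factors or with DESeq2. CCT3, TTC1, KPNA2 and FAM192A were all higher in GV than in MII oocytes, with GV means of 761, 1240, 2380 and 1290 CPM, and RACGAP1 was lower (GV mean 212 CPM, MII mean 301 CPM).

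The genes that led the deepest falls had from 0 to 6 counts over the 3 2-cell libraries, which a choice by fold change favors. INHA, the alpha subunit of the granulosa cell hormone inhibin, was at 8.70, 14.1 and 7.38 CPM in MII oocytes and had 0 counts in every 2-cell library, at least 43.5-fold lower against 3 counts per library (edgeR adjusted p = 0.00385), a call that DESeq2 did not make. TNFAIP6, which builds the matrix of the expanding cumulus, was at 82.0, 147 and 144 CPM and then at 0.152, 0.160 and 0.150 CPM (log2 fold change -9.59 ± 1.65, edgeR adjusted p = 0.000372). RARRES2, which encodes the secreted protein chemerin, had 2161 counts in the MII libraries (63.2, 110 and 62.0 CPM) and 1 count in the 2-cell libraries. For these genes, too, the rule of choice required all 3 MII libraries to lie above all 3 2-cell libraries. GPR50, an orphan receptor, had 311 counts against 0 (at least 50-fold lower, edgeR adjusted p = 0.00757), and the matrix gene POSTN was at 31.1 to 53.4 CPM against at most 0.228 CPM (-8.71 ± 1.56, edgeR adjusted p = 0.000762). TCIM and TMEM176B completed this group, at 11.4 to 25.2 and 33.1 to 51.2 CPM in MII oocytes and at most 0.0761 and 0.226 CPM in 2-cell embryos.

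Interferon-stimulated and metallothionein genes were also among the 12 leading falls. MX1, which encodes an antiviral GTPase, was at 17.5, 57.3 and 25.1 CPM in MII oocytes and had a single count in the 2-cell libraries, a ratio of 1340 (95% exact counting interval 240 to 53000). The ubiquitin-like modifier gene ISG15 was at 12.7, 57.9 and 18 CPM and had 2 counts in 2-cell embryos (ratio 601, interval 166 to 4970). RSAD2, the antiviral protein viperin, was at 5.84, 23.1 and 10.1 CPM against 1 count. Library MII B was the highest of the 3 MII libraries for all 3 of these genes. The metallothioneins MT1A and MT1E, which bind zinc and copper, showed another order, with MII C the lowest at 5.59 and 7.85 CPM and MII A the highest at 26.2 and 28.2 CPM. MT1A had 0 counts in 2-cell embryos (at least 68.1-fold lower) and MT1E had 1, but metallothionein genes are close copies, among which reads may be divided with error. In GV oocytes all 12 genes had mean levels of 0.441 CPM or less.

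These falls were accompanied by markers of follicle cells. Of 22 cumulus and granulosa cell markers, 19 passed the count filter and 5 fell, namely TNFAIP6, CYP11A1, HSD17B1, INHBA and SERPINE2, and 0 rose (0 also by DESeq2 and at an unadjusted p below 0.05, but 1 higher and 4 lower with library totals alone). Of the 5, HSD17B1 (33 counts against 0) lost its call without MII A, MII C or any 2-cell library (edgeR adjusted p up to 0.104), and 2 to 4 markers fell on leaving out 1 library, 2 without 2-cell C and 3 without MII C or 2-cell A. The summed level of the tested markers was 852 to 1250 CPM in MII libraries, 547 to 576 CPM in 2-cell libraries and 652 to 814 CPM in GV libraries. CYP11A1, the enzyme that starts steroid synthesis, had 113, 216 and 111 counts in the MII libraries and 1, 2 and 0 in the 2-cell libraries. INHBA had 136, 226 and 83 counts and then 0, 9 and 1. By contrast, the defining granulosa factor FOXL2 had 0 counts in all 6 libraries, while HAS2, VCAN, PTGS2 and STAR were present at both stages, STAR with 1292 to 1967 counts in MII and 2947 to 3732 in 2-cell libraries. Of 13 tested stromal and blood cell markers 2 fell, VIM and LUM (8.93 to 19.4 against at most 0.152 CPM, and 28.1 to 68.8 against 0.4 to 1.13 CPM), LUM losing its call without MII C or any 2-cell library (edgeR adjusted p up to 0.0855). Others were higher without passing, PDGFRB with 1, 0 and 0 counts in MII and 15, 15 and 16 in 2-cell libraries and VWF with 222, 164 and 135 and then 597, 560 and 487, and DESeq2 called 1 of the 13 higher and 4 lower. The summed level of the 13 was 100 to 127 CPM in MII, 61 to 68.8 CPM in 2-cell and 100 to 134 CPM in GV libraries. In 8-cell embryos several of these genes were above their MII levels in every library, and 8-cell A was far above the others: POSTN was at 1960, 125 and 297 CPM in 8-cell A to C, VIM at 789, 138 and 181 CPM and CYP11A1 at 146, 51.1 and 61.3 CPM. There the summed cumulus and granulosa markers were at 2420, 503 and 566 CPM and the summed stromal and blood cell markers at 9970, 2000 and 1500 CPM. Of the 871 genes that fell, 153 had means below 1 CPM in both GV oocytes and 2-cell embryos, with a median MII level of 3.6 CPM. Without genes so low at both stages, 858 rises and 718 falls were left. The part of follicle cells in the falls was not tested.

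**Figure D2:**
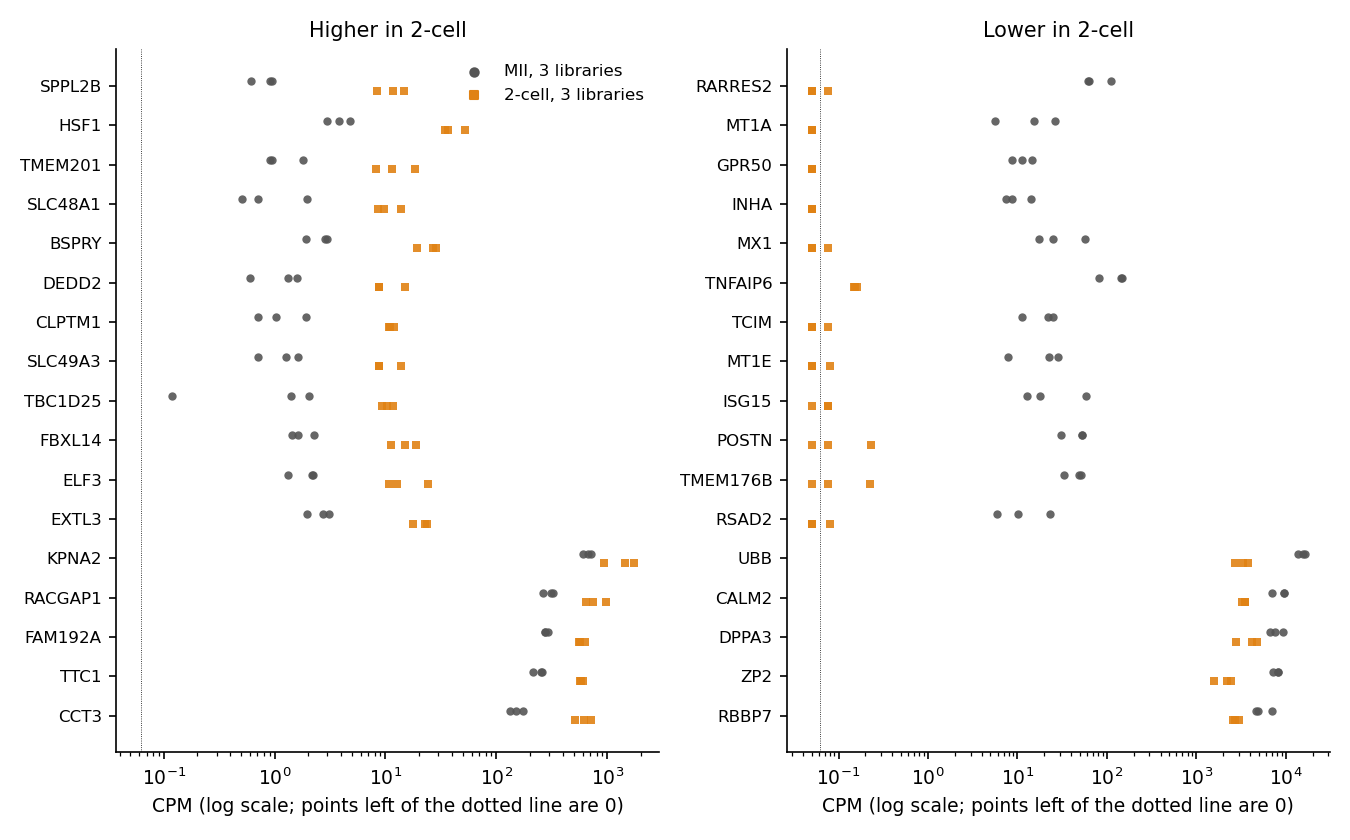
Levels in each library (CPM, log axis) of the 12 genes with the largest fold change and the 5 with the most counts among those called higher (left) and lower (right) in 2-cell embryos. Gray circles are the 3 MII libraries and orange squares the 3 2-cell libraries, and points left of the dotted line are at 0. In the right panel the 12 upper genes drop to 0.228 CPM or less, whereas the 5 lower ones stay above 1500 CPM.

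Among the genes that fell, those with the most counts stayed at high levels in 2-cell embryos, unlike the group above. The rules of choice, by fold change above and by counts here, favor this contrast. UBB, a polyubiquitin gene, was at 16500, 13600 and 15600 CPM in MII oocytes and 3800, 3310 and 2710 CPM in 2-cell embryos (-2.22 ± 0.23, edgeR adjusted p = 7.36e-07). CALM2, 1 of the 3 calmodulin genes, went from 9590, 7030 and 9500 to 3230, 3540 and 3500 CPM (-1.35 ± 0.29, edgeR adjusted p = 0.0021). The groups were apart for both genes by a factor larger than the spread within either stage. DPPA3, a maternal factor that protects DNA methylation, was at 7660, 6760 and 9290 CPM and then at 4170, 4820 and 2790 CPM (-1.01 ± 0.32, edgeR adjusted p = 0.0361). RBBP7, a histone-binding subunit of chromatin complexes, fell by 1.01 ± 0.21 on the log2 scale (edgeR adjusted p = 0.00149). ZP2, which encodes the zona protein that binds sperm, was at 8130, 7150 and 8130 CPM and at 2460, 2230 and 1590 CPM (-1.90 ± 0.61, edgeR adjusted p = 0.0394). CALM2, DPPA3, ZP2 and RBBP7 were no longer called with library totals alone, where their signs did not change. Nor did DPPA3, ZP2 or RBBP7 pass without the filter on low counts, nor DPPA3 or RBBP7 with the 6 libraries fitted alone. ZP2 also lost its call on leaving out any 1 of the 6 libraries (edgeR adjusted p 0.0614 to 0.159), DPPA3 on leaving out MII A, MII C, 2-cell A or 2-cell C (up to 0.191), and RBBP7 without MII C, 2-cell A or 2-cell C, where its log2 fold change was as small as -0.81.

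Gene lists by function separated from one another. Beside the 6.0% of all genes called higher and the 5.96% called lower, and a median log2 fold change of 0.00 over all genes, the cytosolic ribosomal protein genes, the nuclear genes of oxidative phosphorylation and the proteasome stood far towards falls. The counts of calls in the smaller lists are a few genes each and moved with single libraries. The plot of members called by list places the 21 lists in order of their median.

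**Figure D3:**
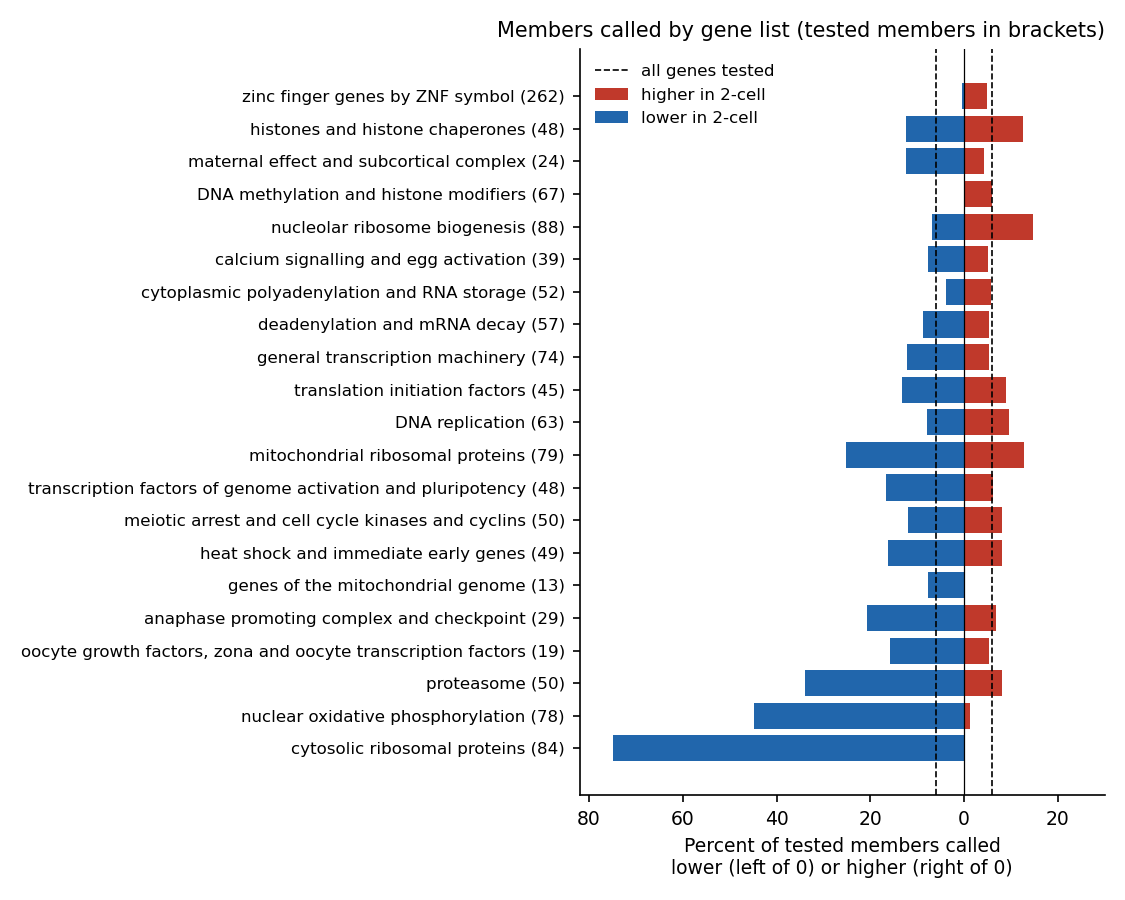
Percent of the tested members of each gene list called higher (red, right of 0) or lower (blue, left of 0) in 2-cell embryos, with the number of tested members in brackets and the percent over all genes tested as dashed lines (6.0% and 5.96%). Lists are ordered by median log2 fold change. The cytosolic ribosomal protein genes reach 75% lower and 0 higher.

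Ribosomal proteins of the cytosol form the small and large subunits of the ribosome together with ribosomal RNA. Of 84 such genes 63 (75%) fell and 0 rose (0 also by DESeq2 and at an unadjusted p below 0.05), and their median log2 fold change was -1.57 (range -4.77 to 0.37). In 74 of the 84, all 3 2-cell libraries lay below all 3 MII libraries, against 25.5% of all genes tested. RPS19, of the small subunit, was at 151, 115 and 82.4 CPM in MII oocytes and 4.11, 3.28 and 5.34 CPM in 2-cell embryos (-4.77 ± 0.43, edgeR adjusted p = 1.24e-07). RPS27 went from 52.0, 43.2 and 26.4 to 2.59, 2.88 and 2.56 CPM (-3.92 ± 0.56, edgeR adjusted p = 3.14e-05), and RPL12, of the large subunit, from 12.9, 13.0 and 17.7 to 0.380, 0.480 and 1.05 CPM (-4.49 ± 1.02, edgeR adjusted p = 0.00384). As a share of all counts, which needs no scaling factor, the list took 1.17%, 0.945% and 0.751% of the MII libraries and 0.584%, 0.501% and 0.558% of the 2-cell libraries. The groups did not overlap, although MII C was nearest to the 2-cell libraries. The share had been 1.33% to 1.84% in GV oocytes and was 4.58% to 6.33% in 8-cell embryos. With library totals alone 43 members fell, with a median of -1.08. The polysome pools, which did not enter this contrast, had 46 members lower and 0 higher, against 5.14% and 3.37% of all genes tested. The median of the list there was -1.49, and 40 members were lower in both readouts. Ribosomal protein genes have many processed copies in mammalian genomes, to which some reads may have been assigned.

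The machinery of mitochondrial energy production shifted in the same sense where it is encoded in the nucleus. Of 78 tested nuclear genes of oxidative phosphorylation, 35 fell, 1 rose, and the median was -1.06. NDUFC2, a subunit of respiratory complex I, was at 27.4, 22.6 and 17.1 CPM and then at 1.07, 1.6 and 1.05 CPM (-4.17 ± 0.39, edgeR adjusted p = 2.01e-07). NDUFA11, of the same complex, went from 186, 116 and 86.4 to 16.9, 9.59 and 15.3 CPM (-3.22 ± 0.37, edgeR adjusted p = 3.13e-06), and UQCR11 of complex III fell by 2.97 ± 0.57 on the log2 scale (edgeR adjusted p = 0.000825). The exception was NDUFA8, another complex I subunit, which rose from 34.1, 24.3 and 17.5 to 141, 108 and 143 CPM (2.37 ± 0.30, edgeR adjusted p = 8.53e-06). The share of counts on the list overlapped between the stages, at 0.613% to 1.03% in MII and 0.586% to 0.708% in 2-cell libraries, with MII C within the 2-cell range. With library totals alone 23 fell, 5 rose and the median was -0.57, and without MII A 26 fell.

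Mitochondrial ribosomal proteins, which build the ribosome inside the organelle, went both ways. Of 79 genes 20 fell and 10 rose, both above the background, and the median of -0.20 turned to 0.31 with library totals alone (9 lower and 22 higher). Without MII C 6 rose. MRPL22 fell from 311, 277 and 286 to 48.5, 46.5 and 56.2 CPM (-2.53 ± 0.28, edgeR adjusted p = 1.79e-06), MRPS14 from 407, 210 and 180 to 41.2, 42.6 and 51.3 CPM and MRPL42 from 342 to 459 to 64.7 to 75.1 CPM. In the opposite direction, MRPS2 rose from 3.32, 4.26 and 2.14 to 22.5, 18.4 and 29.6 CPM (2.85 ± 0.32, edgeR adjusted p = 2.31e-06), MRPL4 from 6.75, 8.21 and 6.66 to 30.7, 32.1 and 46.9 CPM, and MRPS6 from 30.9, 36.9 and 36.6 to 134, 108 and 119 CPM. Of the 13 protein-coding genes of the mitochondrial genome 1 passed the test, ND1, at 1480, 1170 and 931 CPM and then 515, 658 and 595 CPM (-1.02 ± 0.30, edgeR adjusted p = 0.0252). The ND1 call was lost with library totals alone and without MII A, 2-cell A or 2-cell C (edgeR adjusted p up to 0.120).

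The proteasome, which degrades ubiquitin-tagged proteins, had 17 of 50 tested members lower, 4 higher and a median of -0.85. The core subunits PSMA1 and PSMA2 fell furthest: PSMA1 was at 30, 33.7 and 32.6 CPM in MII oocytes and 1.29, 0.719 and 1.88 CPM in 2-cell embryos (-4.62 ± 0.45, edgeR adjusted p = 3.67e-07), and PSMA2 at 45.5, 57.1 and 42.1 and then at 1.98, 2.72 and 2.48 CPM (-4.33 ± 0.48, edgeR adjusted p = 2.19e-06). Both genes were at means under 9 CPM in GV oocytes, and at 949 and 817 CPM in 8-cell embryos. The ATPase subunits of the cap PSMC1 and PSMC2 rose instead, PSMC1 from 37.0, 51.2 and 37.5 to 154, 117 and 153 CPM (1.75 ± 0.25, edgeR adjusted p = 4.02e-05) and PSMC2 from 82.9, 98.8 and 101 to 262, 239 and 199 CPM (1.31 ± 0.24, edgeR adjusted p = 0.000555). PSMF1, a proteasome inhibitor, rose by 2.42 ± 0.33 (edgeR adjusted p = 2.28e-05). With library totals alone 11 members were lower and 10 higher, with a median of -0.34.

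**Figure D4:**
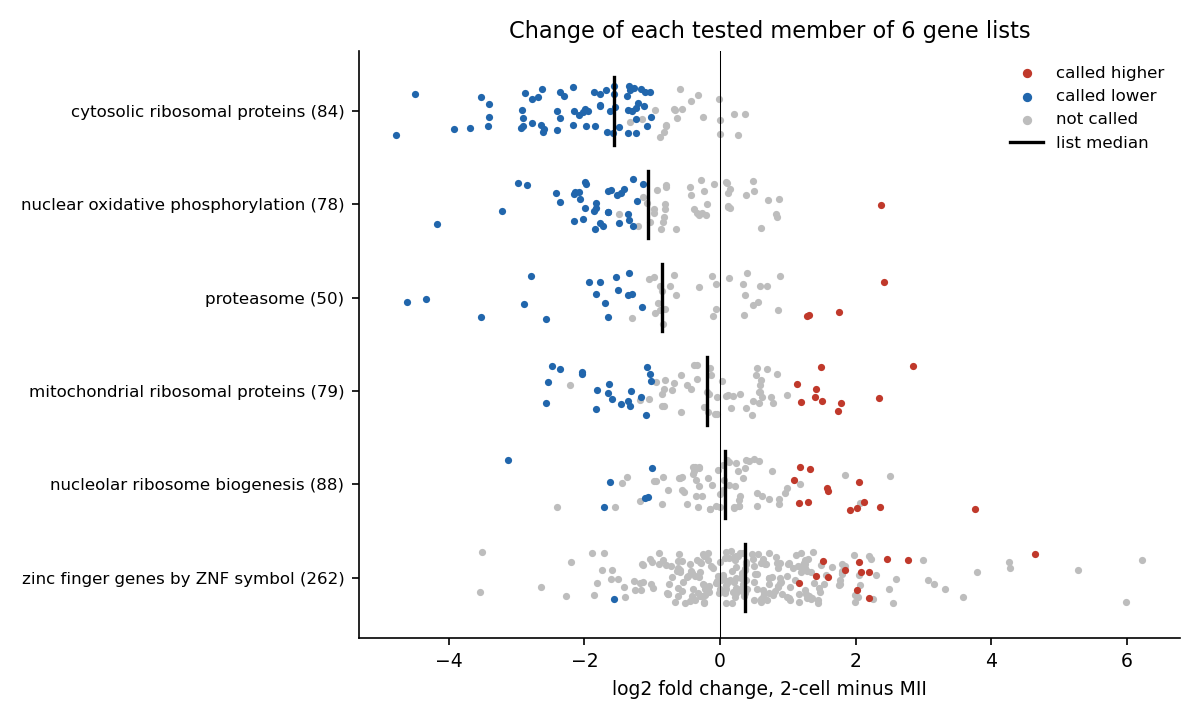
log2 fold change (2-cell minus MII) of every tested member of 6 lists, 1 point per gene, with red points called higher, blue called lower, gray not called and a black bar at the list median. The bar stands at -1.57 for cytosolic ribosomal proteins, -1.06 for nuclear oxidative phosphorylation and -0.85 for the proteasome.

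Genes that assemble ribosomes in the nucleolus did not follow the ribosomal proteins. Of 88 tested, 13 (14.8%) rose and 6 (6.82%) fell, with a median of 0.08. Library totals alone gave 22 and 3, and 3 fell without MII A, MII B, 2-cell B or 2-cell C. BOP1, a processing factor of the large subunit, was at 0.343, 0.304 and 0.238 CPM in MII oocytes and 3.42, 2.56 and 6.24 CPM in 2-cell embryos (3.75 ± 0.49, edgeR adjusted p = 1.35e-05). PPAN went from 28.1, 38.8 and 26.1 to 146, 129 and 200 CPM (2.35 ± 0.30, edgeR adjusted p = 1.2e-05), and the RNA methyltransferase gene NOP2 from 6.30, 6.69 and 8.45 to 33.5, 25.6 and 34.7 CPM. NOP58, a core protein of box C/D small nucleolar particles, fell from 565, 518 and 732 to 221, 191 and 180 CPM (-1.61 ± 0.22, edgeR adjusted p = 2.5e-05). Among 45 translation initiation factors, 4 rose and 6 fell, against 10 and 4 with library totals alone, and 1 rose without MII C and 2 without 2-cell A. EIF1AX, which scans for the start codon, was at 511, 328 and 323 CPM and then at 73.6, 52.0 and 51.1 CPM (-2.72 ± 0.37, edgeR adjusted p = 2.22e-05), EIF3H fell by 2.01 ± 0.32, and EIF2B4, of the nucleotide exchange factor of eIF2, rose from 24.1 to 31.7 CPM to 69.7 to 92.9 CPM (1.43 ± 0.28, edgeR adjusted p = 0.000951).

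Release from meiotic arrest and entry into mitosis depend on kinases, cyclins and the anaphase-promoting complex. Of 50 arrest and cell cycle regulators 4 rose and 6 fell, and of 29 members of the anaphase-promoting complex and checkpoint 2 rose and 6 fell (20.7%). Their medians of -0.30 and -0.44 turned to 0.22 and 0.08 with library totals alone, where 7 rose and 2 fell, and 3 rose and 2 fell. Without MII C, 2-cell B or 2-cell C 2 of the arrest and cell cycle regulators rose. Without any 1 library 1 checkpoint gene rose, and 2 fell without MII C or 2-cell C and 3 without 2-cell A or 2-cell B. PLK1, a kinase of mitotic entry, went from 31.5, 33.5 and 21.2 to 101, 96.9 and 152 CPM (2.02 ± 0.40, edgeR adjusted p = 0.00103). The checkpoint gene MAD1L1 was at 4.92, 5.07 and 4.04 CPM and then at 37.4, 26.1 and 31.7 CPM (2.76 ± 0.47, edgeR adjusted p = 0.00029), and the cyclin-dependent kinase activator SPDYC rose by 2.06 ± 0.39. On the other side UBE2C, the ubiquitin-conjugating enzyme of the anaphase-promoting complex, fell from 1360, 930 and 1270 to 262, 206 and 299 CPM (-2.21 ± 0.26, edgeR adjusted p = 3.43e-06). CKS1B, a cyclin-dependent kinase subunit, was at 5120, 3760 and 5810 CPM and at 1770, 1480 and 1690 CPM (-1.57 ± 0.34, edgeR adjusted p = 0.00246), and CDC26 fell by 1.52 ± 0.30 on the log2 scale. MOS and CCNB1 did not pass the test. MOS, the kinase that holds the arrest, was at 994, 807 and 909 CPM in MII oocytes and 939, 475 and 723 CPM in 2-cell embryos (-0.34 ± 0.54, edgeR adjusted p = 0.79), and CCNB1, which encodes cyclin B1, at 2000, 2140 and 2660 and then 1730, 1710 and 2020 CPM (-0.32 ± 0.23, edgeR adjusted p = 0.461). The groups overlapped for both genes.

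Of 19 tested growth factor, zona and oocyte transcription factor genes, 1 rose and 3 fell, against 1 and 1 with library totals alone and 2 and 5 with the 6 libraries fitted alone. The stages did not overlap in 14 of them, with the 2-cell libraries above in 5 and below in 9. Among all genes tested 24.7% lay above and 25.5% below in this way. ZP3, the zona protein, dropped from 1780, 1160 and 784 to 310, 226 and 299 CPM (-2.16 ± 0.38, edgeR adjusted p = 0.000355) and had a GV mean of 2690 CPM. NOBOX, an oocyte transcription factor, was at 4.12, 7.30 and 6.19 CPM and then 18.7, 14.9 and 28.3 CPM (1.81 ± 0.54, edgeR adjusted p = 0.0265), but its call was lost without any MII library or 2-cell C (up to 0.127). The secreted growth factors GDF9 and BMP15, which signal to the follicle, did not pass: GDF9 was at 2590, 2380 and 1980 and then 1540, 1770 and 1500 CPM (-0.53 ± 0.84), and BMP15 at 2140, 2940 and 3020 and then 4400, 3870 and 3680 CPM (0.56 ± 0.70). Their groups do not overlap, yet the standard errors of the model across stages exceed the changes. Of 24 maternal effect genes 1 rose (HSF1, above) and 3 fell, whereas 3 rose and 0 fell with library totals alone, and 1 fell without MII A. Besides DPPA3, these were OOEP of the subcortical complex, from 614, 416 and 431 to 222, 174 and 235 CPM (-1.21 ± 0.33, edgeR adjusted p = 0.0158), and the corepressor TRIM28, from 53.9, 32.6 and 32 to 12.2, 18.5 and 16 CPM (-1.34 ± 0.28, edgeR adjusted p = 0.00188). Library totals alone removed the calls of OOEP and TRIM28, and OOEP also lost its call without MII A or 2-cell B (up to 0.0821). NLRP5 and ZAR1, 2 further maternal effect genes, had log2 fold changes of 1.37 ± 0.80 and 0.71 ± 0.60 with adjusted p of 0.322 and 0.549 by edgeR. Their groups did not overlap either. NLRP5 was at 17.0 to 38.4 and then 70.3 to 82.8 CPM, and ZAR1 at 82.0 to 107 and then 121 to 189 CPM.

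The genes that shorten, lengthen and destroy maternal mRNA were called at shares near those of all genes (6.0% higher and 5.96% lower). Of 57 deadenylation and decay genes 3 (5.26%) rose and 5 (8.77%) fell. Of 52 polyadenylation and storage genes 3 (5.77%) rose and 2 (3.85%) fell. With library totals alone the counts were 8 and 3, and 6 and 2. CNOT1, the scaffold of the CCR4-NOT deadenylase, rose from 62.5, 75.2 and 52.3 to 208, 177 and 140 CPM (1.47 ± 0.30, edgeR adjusted p = 0.00174), while CNOT9 of the same complex fell from 52.4, 45.2 and 38.5 to 11.2, 13.4 and 15.1 CPM (-1.78 ± 0.42, edgeR adjusted p = 0.00468). The antiproliferative genes BTG1 and BTG3, whose proteins recruit the deadenylase, fell (-2.33 ± 0.43 for BTG1 and -4.86 ± 0.93 for BTG3). BTG4, the oocyte member of that family, was at 23300, 19900 and 29900 CPM and then 11300, 11100 and 10900 CPM, without overlap, and its log2 fold change of -1.14 ± 0.81 did not pass (edgeR adjusted p = 0.447). PABPC1, the poly(A)-binding protein of somatic cells, fell from 232, 196 and 184 to 56, 51.2 and 44 CPM (-2.02 ± 0.28, edgeR adjusted p = 2.71e-05). NANOS1, a translational repressor, rose from 3.66, 7.5 and 4.04 to 30.9, 23.4 and 46.2 CPM (2.72 ± 0.61, edgeR adjusted p = 0.0035), as did SYMPK, a scaffold of the polyadenylation machinery (2.62 ± 0.43).

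Transcription and chromatin genes were examined because the embryonic genome is still largely silent at the 2-cell stage. Of 48 transcription factors of genome activation and pluripotency 3 rose (HSF1, MAX and ELK1) and 8 (16.7%) fell, against 4 and 2 with library totals alone. Without MII B, 2-cell A or 2-cell B 5 fell, and 3 without 2-cell C. MAX, the partner of MYC, went from 1.95, 2.53 and 1.55 to 9.28, 10.4 and 18.4 CPM (2.65 ± 0.44, edgeR adjusted p = 0.000226). HSF2 fell from 21.4, 13.4 and 11.1 to 3.12, 3.20 and 2.86 CPM (-2.32 ± 0.53, edgeR adjusted p = 0.00399), opposite to HSF1, and the Kruppel-like factor KLF10 from 8.36, 6.39 and 4.04 to 0.761, 0.560 and 0.301 CPM (-3.52 ± 0.91, edgeR adjusted p = 0.0106), a call lost without 2-cell C (0.0666). NANOG and KLF17, which mark the later embryo, had 1 count each in the MII libraries and 1 and 4 counts in the 2-cell libraries, and 8-cell means of 184 and 297 CPM. In the polysome pools NANOG was at 0 CPM at both stages. KLF17 was there at 0 and 0.107 CPM in MII and at 0.834 and 4.52 CPM in 2-cell embryos (5.46 ± 1.16, edgeR adjusted p = 0.00453), all low levels. POU5F1 was at 29.8 to 34.5 CPM and then 24.4 to 27.0 CPM (edgeR adjusted p = 0.634). Among 74 genes of the general transcription machinery 4 rose and 9 (12.2%) fell, against 11 and 4 with library totals alone, and 2 rose without MII B, MII C or 2-cell C. The falls included the Mediator subunits MED29, from 65.3, 51.5 and 50.7 to 5.71, 6.16 and 8.42 CPM (-3.04 ± 0.33, edgeR adjusted p = 1.79e-06), and MED6, from 706, 593 and 922 to 203, 182 and 154 CPM (-2.04 ± 0.26, edgeR adjusted p = 1.05e-05). MED22, of the same complex, rose by 2.42 ± 0.36 (edgeR adjusted p = 5.36e-05).

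Of 67 DNA methylation and histone modifying genes 4 rose and 0 fell, against 13 and 0 with library totals alone, 12 and 4 with the 6 libraries fitted alone and 6 and 4 by DESeq2, and 14 and 5 had an unadjusted p below 0.05. Leaving out 1 library left 1 rise without MII A and 2 without MII B, MII C, 2-cell A or 2-cell C. SUV39H1, a histone H3 lysine 9 methyltransferase, was at 4.12, 3.55 and 1.55 CPM and then at 13.1, 14.1 and 22.3 CPM (2.42 ± 0.40, edgeR adjusted p = 0.000204). DNMT1, the maintenance DNA methyltransferase, was at 588, 600 and 772 and then 471, 484 and 356 CPM (-0.58 ± 0.29, edgeR adjusted p = 0.226), and its partner UHRF1 at 185 to 251 and then 261 to 326 CPM (0.39 ± 0.35, edgeR adjusted p = 0.573). Among 262 zinc finger genes with a ZNF symbol 13 (4.96%) rose and 1 (0.382%) fell, with a median of 0.36. The counts of 13 and 1 became 34 and 0 with library totals alone and 58 and 12 with the 6 libraries fitted alone, and 8 rose and 0 fell without MII A, MII C or 2-cell C.

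Of 48 genes of histones and histone chaperones 6 rose and 6 fell, against 12 and 3 with library totals alone. Between 1 and 5 rose on leaving out 1 library, the fewest without MII B, and 3 fell without MII C or 2-cell C. H2AFZ, the variant H2A.Z, was at 44.3, 60.1 and 62.7 CPM in MII oocytes and 3.58, 2.16 and 5.87 CPM in 2-cell embryos (-3.84 ± 0.64, edgeR adjusted p = 0.000198). H2AFJ, another H2A variant, went from 6.07, 8.41 and 5.0 to 0.228, 0.240 and 0.150 CPM (-4.94 ± 0.55, edgeR adjusted p = 2.19e-06). CHAF1B, a subunit of the chaperone that deposits histones at replication, rose from 4.69, 3.04 and 4.28 to 17.6, 16.1 and 16.2 CPM (2.06 ± 0.53, edgeR adjusted p = 0.0103), a call lost without MII B (0.0584). The core histone genes of the clusters are close copies and many of their mRNAs lack a poly(A) tail, so that their values are uncertain here. For DNA replication 6 of 63 genes rose and 5 fell, against 9 and 3 with library totals alone. PCNA, the sliding clamp, fell from 3360, 2960 and 4560 to 801, 886 and 834 CPM (-2.11 ± 0.22, edgeR adjusted p = 7.46e-07) and RRM1, of ribonucleotide reductase, from 346, 489 and 638 to 139, 198 and 104 CPM (-1.74 ± 0.39, edgeR adjusted p = 0.00318). The licensing factor CDT1 rose from 0.916, 1.82 and 0.833 to 6.47, 7.43 and 11.9 CPM (2.83 ± 0.53, edgeR adjusted p = 0.000604), and the polymerase subunits POLD2 and POLA2 by 2.55 ± 0.44 and 2.31 ± 0.56.

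Stress and immediate early genes, which answer to HSF1 and to growth signals, had 4 of 49 higher and 8 (16.3%) lower, against 11 and 4 with library totals alone, and 2 rose without MII C or 2-cell C. The early response genes EGR1 and FOS fell, EGR1 from 14.4, 27.4 and 13.1 to 0.609, 0.400 and 1.05 CPM (-4.72 ± 0.96, edgeR adjusted p = 0.00148) and FOS from 16.7, 36 and 19.3 to 1.07, 0.320 and 1.58 CPM (-4.59 ± 1.04, edgeR adjusted p = 0.00375). MII B was the highest library for both. The chaperone gene HSPB1 fell from 61.4, 72.2 and 63.3 to 10.7, 12 and 13.8 CPM (-2.43 ± 0.33, edgeR adjusted p = 2.26e-05), whereas the cochaperone DNAJB1 rose from 16.9, 22.3 and 10.6 to 47.9, 53.2 and 75.4 CPM (1.82 ± 0.29, edgeR adjusted p = 0.000114). EGR1, FOS and HSPB1 had GV means of 0.762, 0.364 and 5.01 CPM. Of 39 calcium signalling and egg activation genes 2 rose and 3 fell, against 5 and 1 with library totals alone, and 0 rose without MII C or 2-cell C and 1 without MII A or MII B. The falls included CALM2 (above) and MARCKS, a substrate of protein kinase C, at 5.84, 4.87 and 1.43 CPM and then 0.837, 0.480 and 0.902 CPM (-2.44 ± 0.59, edgeR adjusted p = 0.00652).

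Set beside the neighboring stages, the genes that rose and those that fell had different levels before and after. For the 877 genes that rose, the median level was 3.91 CPM at MII and 14 CPM at the 2-cell stage, beside 12.6 CPM before maturation (GV) and 7.92 CPM at the 8-cell stage. In all, 64 of the 877 had means below 1 CPM in both GV and MII oocytes, and their median in 2-cell embryos was 1.35 CPM. The 871 genes that fell had medians of 55.1 CPM (GV), 64.3 CPM (MII), 17.4 CPM (2-cell) and 110 CPM (8-cell). The GV and 8-cell values are a description, since the genes were picked by their MII and 2-cell levels.

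The polysome pools gave a second readout, from libraries whose levels did not enter the fold changes by which genes were called, although they shared the filter, the scaling and the estimate of spread with the whole samples. There, 493 genes (3.37%) were higher and 751 (5.14%) lower in 2-cell embryos. These counts were 154 and 371 without the MII B pool, 266 and 348 without 2-cell A, and 247 and 320 without 2-cell B. Of the 877 genes that rose in the transcriptome 125 (14.3%) were higher in the polysome pools and 4 lower, and 690 (78.7%) had a polysome log2 fold change above 0, against 48.5% of all genes tested. Of the 871 that fell 324 (37.2%) were lower in the pools and 5 higher, and 96 (11%) were above 0. HSF1 was at 258 and 191 CPM in the MII pools and 689 and 632 CPM in the 2-cell pools (1.55 ± 0.35, edgeR adjusted p = 0.0068). UBB dropped from 23700 and 24400 to 1860 and 1920 CPM (-3.66 ± 0.30, edgeR adjusted p = 8.36e-08) and RPS19 from 134 and 240 to 16.7 and 28.8 CPM (-3.04 ± 0.47, edgeR adjusted p = 0.000358). For these genes both readouts moved in the same direction, as the plot of the 2 readouts shows for most genes. The size of the change still differed between readouts for HSF1 (polysome minus transcriptome -1.84, edgeR adjusted p = 0.0374) and UBB (-1.44, edgeR adjusted p = 0.0322). For RPS19 the difference did not pass (1.73, edgeR adjusted p = 0.131).

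**Figure D5:**
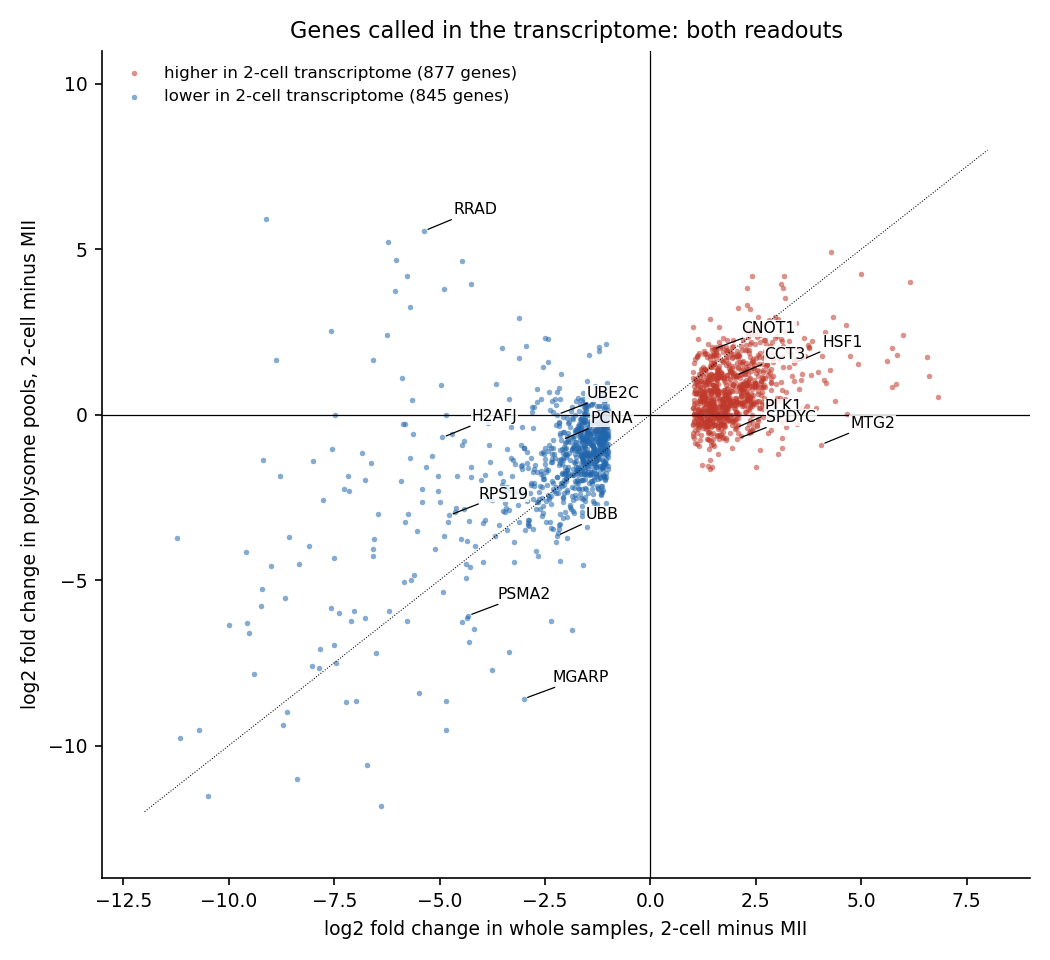
log2 fold change (2-cell minus MII) in the polysome pools (vertical) against that in the whole samples (horizontal) for genes called in the transcriptome, red for the 877 higher and blue for the 845 lower genes with a value above 0 in at least 1 of the 4 MII and 2-cell polysome pools. The dotted line marks equal change. On the vertical axis PLK1, SPDYC, UBE2C and H2AFJ stand at -0.40, -0.73, -0.0 and -0.69.

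A test of the difference between the polysome and the transcriptome change found 264 genes (1.81%), 106 (0.725%) with the polysome change higher and 158 (1.08%) with it lower. Without any 1 of the 6 whole samples it found 107 to 166, the fewest without 2-cell C, and without the 2-cell A or 2-cell B pool 103 and 106. Of the 877 genes that rose, 78 had a lower polysome change and 0 a higher one, and of the 871 that fell, 45 had a higher polysome change and 5 a lower one. Genes were picked by a large transcriptome change, which by itself pulls such differences to this side, so the counts are given as a description. PLK1 rose 2.02 in the transcriptome while its polysome levels were 2990 and 1430 CPM in MII and 1740 and 1590 CPM in 2-cell pools (difference -2.43, edgeR adjusted p = 0.0408). SPDYC, which also rose in the transcriptome, was at 229 and 245 CPM in the MII pools and 154 and 131 CPM in the 2-cell pools (difference -2.79, edgeR adjusted p = 0.0179). UBE2C, in contrast, fell by 2.21 in the transcriptome and was at 922 and 637 CPM in the MII pools and 707 and 851 CPM in the 2-cell pools (difference 2.21, edgeR adjusted p = 0.00636). H2AFJ was at 0.973 and 2.86 CPM and then 1.45 and 0.923 CPM in the pools (difference 4.25, edgeR adjusted p = 0.00636), and PCNA at 168 and 201 and then 125 and 92.2 CPM (difference 1.34, edgeR adjusted p = 0.038). UHRF1, which did not pass in the transcriptome, rose in the pools from 192 and 234 to 1140 and 1390 CPM (2.57 ± 0.45, edgeR adjusted p = 0.000885, difference 2.18, edgeR adjusted p = 0.0415).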

How the data were processed

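Whole-sample and polysome-fraction RNA was amplified from poly(A) tails with a Smart-seq kit. The authors quantified reads with Salmon against a bovine Ensembl annotation and deposited expected counts per gene (16706 genes, 11.7% of values not whole). The methods name the ARS-UCD1.2 assembly and the submitters' processing notes name UMD 3.1, and the Salmon version is not given in the sources used here. Symbols were used as deposited and no coordinates or sequences were read.

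The deposited estimated counts were rounded. The 18 whole-sample libraries and 12 polysome pools were fitted together (12 groups, no replicate block) with edgeR 4.0.16 in R 4.3.3 after filterByExpr and TMM, and 2-cell was contrasted with MII by the quasi-likelihood F test. The self-test on simulated counts (14533 genes) recovered 97% of genes changed by 2 and 64% of those changed by 1.5 on the log2 scale and called 7 of 14333 unchanged genes. It gave every gene the same spread, changed only genes above a minimum MII level, and set equal numbers of rises and falls. These rates therefore do not carry over to genes of low level or larger spread, or to an uneven shift between stages. SE is the log2 fold change divided by the root of F. A zero group was bounded at 3 counts per library, and ratios on 1 to 3 counts carry 95% exact counting intervals, which cover counting error only. Same-letter replicates of the 2 stages did not deviate together (r -0.393 to -0.108 over 10573 genes), so letters were not taken as pairs. Between different letters r ran from -0.0988 to 0.323. It was highest for MII A with 2-cell C (0.323) and MII C with 2-cell A (0.306), so some deviation was shared across stages.

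The comparison and the 21 gene and 4 marker lists were chosen with earlier results of these data known. Named genes are, in each direction, the 12 called genes with the largest fold change (no overlap, at least 10 CPM in the higher stage), the 5 with the most counts, the 3 largest rises and falls per list, the defining members of lists whatever their change, and the 3 largest differences between polysome and transcriptome change. CYP11A1, INHBA, FOXL2, PRM1, PRM2, LDHC, HAS2, VCAN, PTGS2, STAR and SERPINE2 were named as markers. Alternatives included the likelihood ratio test, DESeq2 1.42.0, other libraries, scalings and filters, and leaving out each replicate.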

Additional observations from a re-analysis of the deposited data

Results flagged for a closer look

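For 6 genes called in the transcriptome, the change from MII to 2-cell in the polysome pools differed from that in the whole samples, by the test of the difference itself (edgeR's quasi-likelihood test) (the 3 largest differences in each direction). The fitted log2 differences, polysome minus transcriptome, were 15.03 for ADAMTS1, 10.92 for RRAD, 10.12 for INHBB, -5.58 for MGARP, -4.95 for MTG2 and -4.67 for TMED5, with adjusted p of 0.0495, 0.015, 0.0472, 0.015, 0.00993 and 0.0438. All 6 rest on libraries at 0 or at a few counts, where the fitted value depends on the prior count and is no measure of size. ADAMTS1, a secreted metalloprotease, had 107 counts in MII whole samples and 0 in 2-cell whole samples, while in the polysome pools it was at 0 in 3 of 4 and at 0.831 CPM in 2-cell B. RRAD, a small GTPase, had 36 counts and then 1, and in the pools was above 0.1 CPM in 2-cell B alone (4.03 CPM). INHBB, an inhibin and activin subunit, had 173 counts and then 1, and in the pools was at 0.036 and 1.54 CPM in MII and 8.51 and 0.646 CPM in 2-cell embryos. For these 3 genes the 2 gradients of a stage thus differed as much as the stages.

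MGARP, of the mitochondria, was at 5.61, 6.89 and 6.78 CPM in MII and 1.37, 0.639 and 0.376 CPM in 2-cell whole samples, and at 3.57 and 1.75 CPM in MII and 0 in both 2-cell pools. TMED5, of vesicle transport, was at 2.02 to 3.35 and then 0.609 to 0.799 CPM, and in the pools at 1.12 and 0.143 and then 0 in both. MTG2, a GTPase of the mitochondrial ribosome, rose in whole samples from 2 counts to 52 (ratio 18, 95% exact counting interval 4.75 to 153) while the pools were at 45.5 and 62.0 CPM in MII and 27.6 and 29.7 CPM in 2-cell embryos. The transcriptome calls of 3 of the 6 depended on single libraries: that of TMED5 was lost without any 1 of the 6 whole samples (edgeR adjusted p up to 0.124) and with library totals alone, that of RRAD without MII B, MII C or any 2-cell library (up to 0.121), and that of ADAMTS1 without MII B or any 2-cell library (up to 0.0802).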

How the results depend on the processing

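The counts of genes called moved with the model and the scaling. Rises and falls in the transcriptome were 1957 and 1422 with the 6 libraries fitted alone, 1656 and 1769 with the 18 whole samples, and 1713 and 432 with library totals alone. Within 1.5 times the main counts were 799 and 973 with RLE factors, 1039 and 1179 with DESeq2, 1119 and 1095 with the likelihood ratio test, 1048 and 656 with no filter. Leaving out 1 whole sample gave 478 (without MII C) to 736 rises, with 536 without 2-cell C, and 596 to 760 falls, and 808 falls remained without the cytosolic ribosomal protein genes, an alternative added after seeing the data, as was the count without genes below 1 CPM in GV and 2-cell. In the polysome pools rises and falls were 891 and 1135 with the likelihood ratio test, 893 and 1197 with DESeq2, 761 and 461 with library totals alone, and 154 to 456 and 320 to 757 on leaving out 1 pool, which leaves 1 sample in a group that is then assumed to vary like the others. Genes with a difference between the readouts numbered 690 with the likelihood ratio test, 819 with DESeq2 and 103 to 260 on leaving out 1 library or pool (177 without MII polysome B). The cause was not tested. With the replicate letter as a block, which the labels do not tie to animals or days, 786 genes rose and 801 fell, 395 and 638 in the pools, and 171 differed between readouts. Of 2148 alternative values for 154 named genes, 1960 kept their side of the threshold, 185 were no longer called and 3 were newly called. Among values called in the main or the alternative fit, 0 changed sign. Some genes called in neither did, as CCNB1 (-0.32, and 0.20 with library totals alone) and MOS (-0.34 and 0.16). Of the 142 genes called, 40 lost the call in at least 1 fit that left out a library.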
